A study of Homo sapiens with 6 samples.

Results

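The TRIM (tripartite motif) genes were followed in MDA-MB-453 cells whose tRF-1-Ser was knocked down. The members were the genes whose symbol is TRIM followed by digits and at most 1 further capital letter, without pseudogenes, that had 10 or more counts in at least 3 libraries. Of 36517 genes in the count table, 67 met the rule on symbols and 47 of them met the rule on counts. All 47 members were tested between the groups.

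MDA-MB-453 is a human breast cancer line of the luminal androgen receptor type. Messenger RNA was sequenced at day 3 in 6 libraries. The 3 control libraries (lv_con) came from cells transduced with a lentivirus that carries a negative-control hairpin, and the 3 shtRF libraries (lv_shtRF) from cells transduced with a lentivirus that carries a hairpin against tRF-1-Ser, a fragment released from the 3′ trailer when a precursor of serine tRNA is trimmed. Both groups thus share the line, the lentiviral delivery and the expression of a hairpin, and the knockdown rests on 1 hairpin sequence. Small RNAs of that size are not captured in such libraries, so the level of the targeted RNA is not analysed here. Whether the replicates were separate transductions is not stated in the sources used here, and p-values measure the spread between these libraries, which may be technical.

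Library totals ran from 63541413 to 78917459 counts. All 10 markers of the line were present in every library, with a summed level of 10736 to 11590 CPM (counts scaled to a common library size) in the control and 13282 to 14646 CPM in the shtRF libraries. The 11 markers of fibroblasts, leukocytes, endothelium and basal breast cells summed to 34.3 to 40.6 CPM in the control and 27.4 to 29.7 CPM in the shtRF libraries, and 2 to 4 of them were at 0 in each library. Most of that sum was COL1A1, which was lower in shtRF cells (32.2 ± 2.87 to 20.9 ± 0.329 CPM), while CD68 was higher (4.71 ± 0.509 to 6.97 ± 1.25 CPM) with 85.8% of its exonic bases in other genes. Every other marker on that list was under 1 CPM in every library. The part of either marker list in the results was not tested. In bulk RNA, fewer cells that express a gene and less of its RNA per cell cannot be told apart.

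TRIM proteins share an amino-terminal block made of a RING finger, 1 or more B-box zinc fingers and a coiled coil, and most of them act as ubiquitin ligases. The RING finger recruits the ubiquitin-conjugating (E2) enzyme, and the carboxy-terminal domain, most often a PRY-SPRY domain, chooses the substrate. Many TRIM genes are switched on by interferon, and their products act on sensors and adaptors of antiviral signalling or bind viral proteins directly, while others work in chromatin, on microtubules or in muscle.

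The start regions of the members are shown first, since interferon acts on many TRIM genes through a short promoter element. The core of the interferon-stimulated response element (ISRE) was read here as GAAA, any 2 bases and again GAAA, on either strand. It was searched in the 250 bases before the start of each RefSeq entry of GRCh38.p14, with 1 entry taken per member. That start can lie inside the span listed for the counted gene. A promoter was found for 34 of the 47 members, and 8 of them (23.5%) held the ISRE core, against 1061 of 35116 promoters in all (3.02%). The other motifs searched were TTCNNNGAA, the letters of the gamma-activated site, in 2 of 34 members (5.88%) against 6.57% of all promoters, and the E-box CACGTG in 3 of 34 (8.82%) against 6.34%. Each share is a description of letters in these windows. No promoter was found for TRIM8, TRIM16L, TRIM35 and TRIM55, which were higher in shtRF cells, or for TRIM22, TRIM28 and TRIM4, which were lower. The ISRE core stood in 4 of 7 promoters of higher members, 3 of 8 of lower members and 1 of 19 of members with no call. It was thus found beside changes in both directions. By function, it stood in 5 of 10 promoters of the interferon-inducible TRIM genes defined further on and in 3 of 24 of the other members.

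The stretches around the ISRE core are printed 5′ to 3′ on the strand of the gene, with the letters of the core in capitals, because they show which members share it. For TRIM14 the stretch is chr9:98119223-98119293 on the minus strand, for TRIM26 chr6:30213540-30213645 on the minus strand, for TRIM44 chr11:35662695-35662774 on the plus strand and for TRIM2 chr4:153151913-153152000 on the plus strand. None of these 4 stretches overlapped an annotated exon.
TRIM14: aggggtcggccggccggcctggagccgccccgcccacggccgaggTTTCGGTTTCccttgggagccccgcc
TRIM26: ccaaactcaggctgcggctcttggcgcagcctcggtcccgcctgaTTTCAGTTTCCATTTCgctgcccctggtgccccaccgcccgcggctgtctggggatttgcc
TRIM44: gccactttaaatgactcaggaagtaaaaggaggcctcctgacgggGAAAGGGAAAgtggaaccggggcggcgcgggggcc
TRIM2: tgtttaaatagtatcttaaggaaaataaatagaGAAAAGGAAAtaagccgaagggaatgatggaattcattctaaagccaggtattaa

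TRIM26 held 2 overlapping matches, which together form the longer run in capitals. Counted from the RefSeq start, the core began at position -26 in TRIM14, -35 in TRIM44 and -217 in TRIM2. For the other 4 members the stretch around the core overlapped an annotated exon, and only the core with its nearest bases is shown: TRIM34 at chr11:5624901-5624930 (plus strand), TRIM5 at chr11:5685082-5685111 (minus), TRIM69 at chr15:44736456-44736485 (plus) and TRIM16 at chr17:15683012-15683041 (minus).
TRIM34: gccccaaaaaTTTCACTTTCatttctcagg
TRIM5: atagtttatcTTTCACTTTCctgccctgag
TRIM69: ctaatgagggTTTCTCTTTCtcttaagcaa
TRIM16: acagaggtaaGAAATAGAAAtaaagggtcc

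In TRIM34, TRIM5, TRIM69 and TRIM16 the core lay inside the listed span of the gene. TRIM34 and its neighbour TRIM5 carried the same 10 letters in the core. The 8 genes with an ISRE core did not move together. TRIM34, TRIM44, TRIM16 and TRIM26 were higher in shtRF cells, TRIM14, TRIM69 and TRIM2 were lower, and TRIM5 did not pass the test. Over all genes tested, 20.6% were called higher and 18.9% lower. The count of TRIM34 cannot be told apart from that of the readthrough gene TRIM6-TRIM34, as given further on.

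Across the family, 11 members were higher and 11 were lower in shtRF than in control cells, and 25 did not pass the test. A gene was called higher or lower when its adjusted p in edgeR's quasi-likelihood test was under 0.05. The members called higher were 23.4% of 47, against 20.6% of all 19628 genes tested. The members called lower were 23.4%, against 18.9%, and those called in either direction 46.8%, against 39.5%, so the shares lay near the background. Without shtRF replicate 2 there were 6 members called lower, and without control replicate 3 there were 7. The median size of the log2 fold change was 0.17 over the members and 0.26 over all genes tested, and the signed median was 0.03 over the members and -0.0025 over all genes.

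Beyond a 2-fold change there was 1 member higher (TRIM55), 2.13% against 2.66% of all genes, and 0 lower, against 3.11% of all genes. With 1 library left out, the first count ranged from 0 to 2. The count of members over 2-fold lower was also 0 at an unadjusted p under 0.05 and with DESeq2. In 13 members all shtRF libraries stood above all control libraries (24.9% of all genes did so) and in 13 they stood below (23.8%), which makes 26 members without overlap between the groups, or 55.3% against 48.7% of all genes. The TRIM genes together took 1865 to 1948 CPM in the control and 1951 to 2030 CPM in the shtRF libraries. As a share of raw counts they took 0.19% to 0.198% in the control and 0.193% to 0.198% in the shtRF libraries. These shares overlapped.

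**Figure D1:**
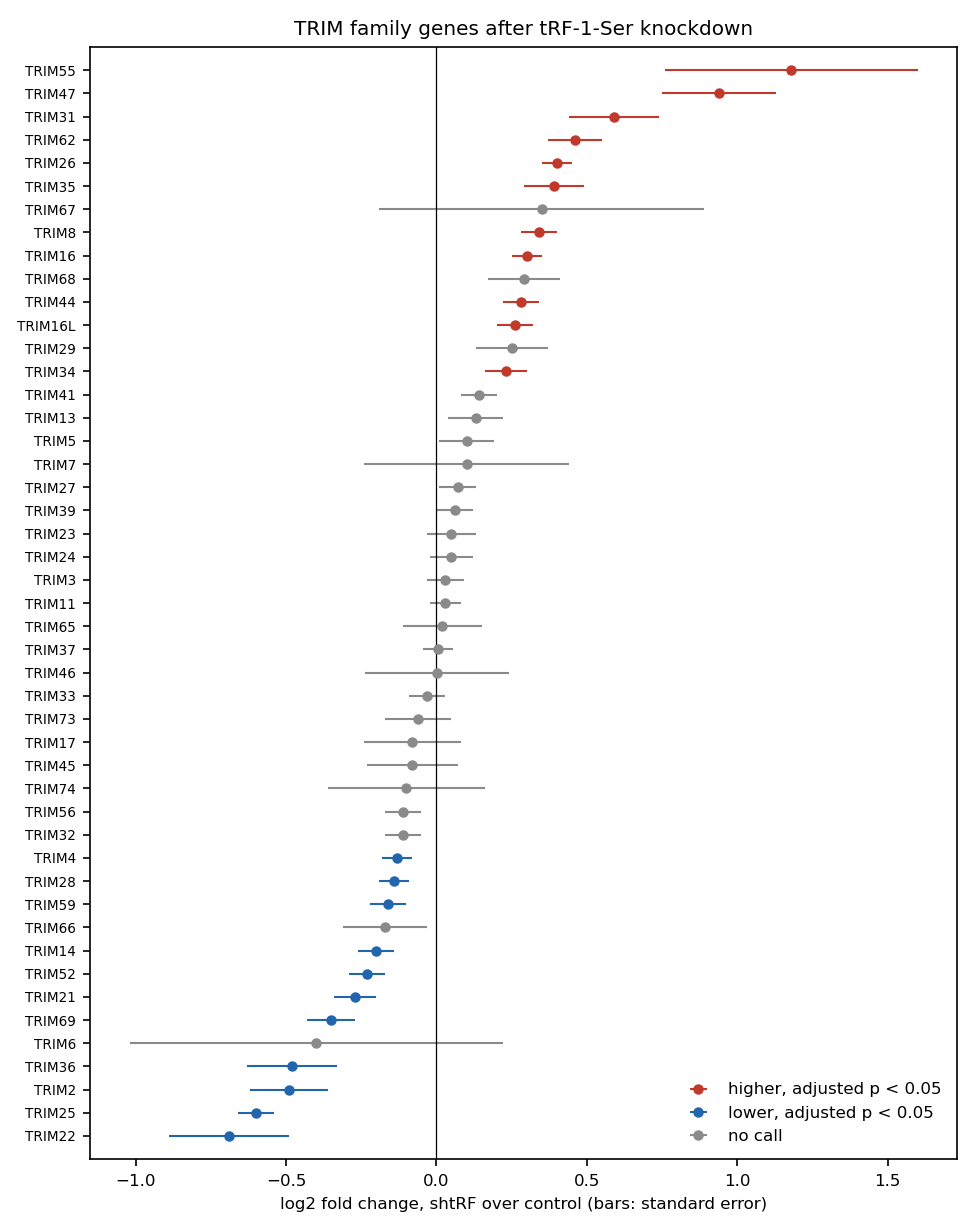
The log2 fold change of shtRF over control is plotted on the horizontal axis for each of the 47 members, 1 point per gene with its standard error as a bar, coloured by call at an adjusted p of 0.05. The 11 genes called lower reach down to TRIM22 at -0.69 and the 11 called higher reach up to TRIM55 at 1.18, while most of the rest lie close to 0.

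The clearest fall was that of TRIM25, the ligase that ubiquitinates the RNA sensor RIG-I and is also known as a gene induced by estrogen. TRIM25 (chr17:56887909-56914038, minus strand) had 45.7, 46.0 and 43.3 CPM in the control libraries and 29.6, 30.4 and 29.1 CPM in the shtRF libraries. The control libraries were all far above the shtRF libraries, with little spread inside either group. This was a 1.52-fold lower level, or a log2 fold change of -0.60 ± 0.06 (SE, n = 3 per group) with an adjusted p of 2.83e-08 in edgeR.

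TRIM22, an antiviral factor induced by interferon, fell furthest in size but from a low level. TRIM22 (chr11:5689689-5737089, plus strand) had 177, 210 and 187 counts in the control and 112, 79 and 133 counts in the shtRF libraries, or 2.72, 2.78 and 2.34 against 1.59, 1.15 and 2.14 CPM. The highest shtRF library, replicate 3, came close to the lowest control library. TRIM22 fell by 0.69 ± 0.20 on the log2 scale (adjusted p 0.00872 in edgeR). Without shtRF replicate 2, the lowest library, it was -0.48 and did not pass the test (adjusted p 0.065).

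Other antiviral TRIM genes fell by less. TRIM69, whose product restrains several RNA viruses, had 13.5, 12.7 and 14.0 CPM in the control and 10.6, 10.5 and 10.3 CPM in the shtRF libraries, a log2 fold change of -0.35 ± 0.08 (adjusted p 0.00143 in edgeR). TRIM21, the cytosolic receptor for antibodies bound to virus, had 33.5, 35.5 and 37.5 CPM against 29.6, 27.6 and 31.2 CPM (-0.27 ± 0.07). In both genes every shtRF library lay below every control library. TRIM14, an adaptor that joins the mitochondrial signalling protein MAVS and has no RING finger, had 61.5, 66.1 and 67.5 CPM in the control and 56.2, 55.3 and 58.8 CPM in the shtRF libraries, a log2 fold change of -0.20 ± 0.06 (adjusted p 0.0076 in edgeR). An overlap with NANS on the opposite strand covers 7.72% of the exonic bases of TRIM14, and NANS went the other way with a log2 fold change of 0.73. Overlapping genes appear to be credited with the same reads in this table, and the part that NANS reads have in the TRIM14 count was not tested.

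Among the members outside antiviral signalling that fell, TRIM2 and TRIM36 changed most. TRIM2 is a neuronal ligase with an NHL domain. It had 4.17, 4.21 and 4.03 CPM in the control and 2.95, 2.80 and 3.10 CPM in the shtRF libraries, and the log2 fold change was -0.49 ± 0.13 (adjusted p 0.00482 in edgeR). TRIM36, which binds microtubules, had 3.18, 3.44 and 3.98 CPM against 2.78, 2.16 and 2.68 CPM. Its groups did not overlap, with a log2 fold change of -0.48 ± 0.15 (adjusted p 0.0150 in edgeR), but the call was lost without control replicate 3 (-0.39, adjusted p 0.0761) and without shtRF replicate 2 (-0.37, adjusted p 0.0893).

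TRIM52, a ligase that ends after its B-box, had 3451, 3775 and 4140 counts in the control and 2994, 3015 and 2802 counts in the shtRF libraries, or 51.6 ± 1.55 against 43.9 ± 1.28 CPM (SD, n = 3). The groups were well apart, with a log2 fold change of -0.23 ± 0.06 (adjusted p 0.00185 in edgeR). Overlap with other genes takes in 28.5% of the exonic bases of TRIM52, most of it in CTC-338M12.4 (-0.21), which had 4.18 to 4.84 CPM as group means. The remaining members called lower were TRIM59, which is anchored in a membrane, TRIM28 and TRIM4, all with log2 fold changes between -0.16 and -0.13 and adjusted p between 0.0428 and 0.0487 in edgeR. TRIM4, which acts on RIG-I, had 94.6, 94.2 and 97.3 CPM in the control and 85.0, 90.1 and 86.2 CPM in the shtRF libraries. These 3 calls were kept in 7 of 13, 8 of 14 and 5 of 14 alternative settings, in that order, and 34.3% of the exonic bases of TRIM59 overlap other genes, SMC4 among them (-0.14).

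The firmest rise was that of TRIM26, a ligase of the major histocompatibility region that acts on the interferon regulator IRF3. TRIM26 (chr6:30184455-30213427, minus strand) had 80.5, 76.9 and 76.8 CPM in the control and 102, 103 and 104 CPM in the shtRF libraries. Each group kept within a few CPM and the gap between them was larger than that. TRIM26 rose by 0.40 ± 0.05 on the log2 scale (adjusted p 1.61e-06 in edgeR). TRIM31, which lies 71348 bases from TRIM26 on the same strand and acts on MAVS and on the NLRP3 inflammasome, had 2.84, 2.77 and 4.16 CPM against 4.60, 4.95 and 5.22 CPM. Control replicate 3 was the highest control library and still lay below every shtRF library. TRIM31 rose by 0.59 ± 0.15 on the log2 scale (adjusted p 0.00311 in edgeR).

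TRIM47 and TRIM62 are PRY-SPRY ligases, and TRIM62 is known as a regulator of polarity in breast epithelium. TRIM47 (chr17:75874161-75878575, minus strand) had 80, 116 and 80 counts in the control and 176, 151 and 157 counts in the shtRF libraries, a log2 fold change of 0.94 ± 0.19 (adjusted p 4.84e-04 in edgeR). Every shtRF library was above every control library. In all, 51.5% of the exonic bases of TRIM47 lie in RP11-552F3.9 on the opposite strand, which had a log2 fold change of 0.93, and the 2 genes cannot be told apart here. TRIM65, which lies 1759 bases away on the strand of TRIM47, had a log2 fold change of 0.02 ± 0.13. TRIM62 had 6.78, 6.96 and 7.27 CPM in the control and 10.3, 9.09 and 9.56 CPM in the shtRF libraries. The groups did not overlap, and the log2 fold change was 0.46 ± 0.09 (adjusted p 4.50e-04 in edgeR).

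TRIM35 and TRIM8 act in innate signalling, TRIM35 on the interferon regulator IRF7 and TRIM8 on the kinase TAK1. TRIM35 had 8.21, 7.93 and 9.60 CPM in the control and 11.2, 10.6 and 12.1 CPM in the shtRF libraries (0.39 ± 0.10, adjusted p 0.00228 in edgeR). TRIM8 had 29.9, 28.8 and 29.4 CPM against 35.9, 37.3 and 38.2 CPM (0.34 ± 0.06, adjusted p 8.71e-05 in edgeR). In both genes every shtRF library lay above every control library.

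TRIM16 and TRIM44 have no RING finger. TRIM16, which takes part in the autophagy of damaged lysosomes, had 104, 100 and 100 CPM in the control and 123, 122 and 132 CPM in the shtRF libraries (0.30 ± 0.05, adjusted p 8.51e-05 in edgeR). Overlap with other genes takes in 28.7% of its exonic bases, most of it in RP11-385D13.1 on the same strand (0.39). RP11-385D13.1 had 6643, 7423 and 7928 counts in the control and 8953, 8576 and 8646 in the shtRF libraries. TRIM16 had nearly the same, 6788, 7573 and 8006 against 8620, 8364 and 8174. The part of the TRIM16 count that is shared was not tested. TRIM16L, the close copy of TRIM16, had 43.9 ± 3.26 CPM in the control and 52.7 ± 3.04 CPM in the shtRF libraries (SD, n = 3). Its log2 fold change was 0.26, and reads may be split between the 2 copies. TRIM44, which carries a zinc finger of ubiquitin proteases and stabilises MAVS, had 344, 306 and 345 CPM in the control and 373, 410 and 423 CPM in the shtRF libraries. The groups did not overlap, and the low value of control replicate 2 widened the gap between their means. TRIM44 rose by 0.28 ± 0.06 on the log2 scale (adjusted p 8.67e-04 in edgeR). Without control replicate 2 the log2 fold change was 0.21 (adjusted p 0.0141 in edgeR).

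TRIM55, a muscle protein of the sarcomere also called MURF2, was the member with the largest fold change and among those with the fewest counts. Its counts were 8, 20 and 26 in the control and 42, 33 and 35 in the shtRF libraries. The groups did not overlap, but control replicate 1 was far below the other control libraries. TRIM55 rose by 1.18 ± 0.42 on the log2 scale (adjusted p 0.0284 in edgeR). In 4 of the 6 fits that left out 1 library the call was lost: without control replicate 1 (0.88, adjusted p 0.127), control replicate 2 (1.24, adjusted p 0.0601), shtRF replicate 1 (1.10, adjusted p 0.0969) and shtRF replicate 3 (1.16, adjusted p 0.0821).

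**Figure D2:**
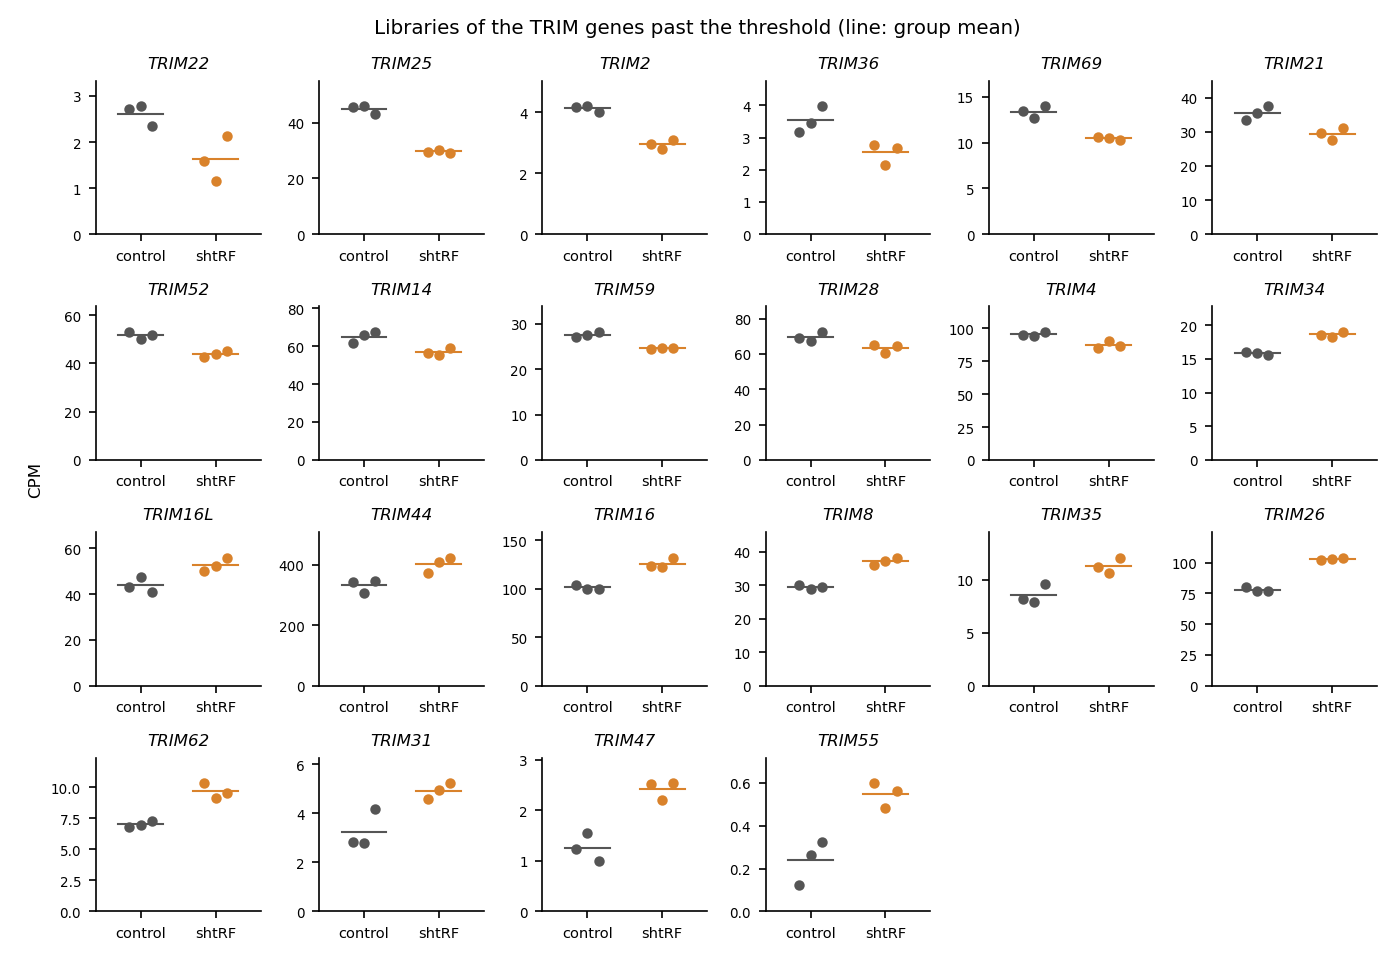
CPM of the 22 members called higher or lower is plotted for each of the 3 control and 3 shtRF libraries, 1 panel per gene with an axis that starts at 0, and a line marks each group's mean. In every panel the shtRF points lie wholly above or wholly below the control points. The gap is wide for TRIM25 and TRIM26 and narrow for TRIM14, TRIM21 and TRIM22.

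The interferon-inducible TRIM genes did not move as a block. The list holds 14 TRIM genes known to respond to interferon. It was compiled from general knowledge, at a time when earlier results of these data were known. Of these, TRIM38 and TRIM58 were below the count minimum with at most 2 counts in any library. Of the 12 members left, 5 fell (TRIM14, TRIM21, TRIM22, TRIM25 and TRIM69), 4 rose (TRIM26, TRIM31, TRIM34 and TRIM35) and 3 did not pass the test. These were 41.7% lower and 33.3% higher, against 18.9% and 20.6% of all genes tested. Their median log2 fold change was -0.15, against 0.03 for the 35 other members, of which 7 rose and 6 fell. The summed level of the 12 genes was 335 to 337 CPM in the control and 326 to 337 CPM in the shtRF libraries, so the sums overlapped.

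TRIM5, which binds retroviral capsids, had 10.2, 10.9 and 10.0 CPM in the control and 10.5, 11.8 and 11.1 CPM in the shtRF libraries, and the groups overlapped (0.10 ± 0.09, adjusted p 0.404 in edgeR). TRIM56, which ubiquitinates STING, had 60.1, 56.9 and 56.1 CPM against 50.7, 55.7 and 54.2 CPM (-0.11 ± 0.06, adjusted p 0.144 in edgeR). Every shtRF value of TRIM56 was below every control value, with a narrow gap. TRIM6, which makes unanchored ubiquitin chains that activate the kinase IKBKE, was near the count minimum at 10, 10 and 17 counts in the control and 8, 2 and 15 counts in the shtRF libraries. Its groups overlapped, and its log2 fold change of -0.40 ± 0.62 did not pass the test.

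The 8 TRIM genes of 11p15, on the short arm of chromosome 11, include the close relatives TRIM5, TRIM6, TRIM22 and TRIM34. In this cluster 1 gene rose (12.5%, against 20.6% of all genes tested), 2 fell (25.0%, against 18.9%) and 5 did not pass the test. TRIM34 had 16.0, 15.9 and 15.6 CPM in the control and 18.6, 18.3 and 19.0 CPM in the shtRF libraries, with a log2 fold change of 0.23 ± 0.07 (adjusted p 0.0123 in edgeR). In TRIM34, 83.0% of the exonic bases lie in other genes, and the readthrough gene TRIM6-TRIM34 had nearly the same counts, 1045, 1202 and 1245 in the control and 1308, 1255 and 1179 in the shtRF libraries. The table thus gives 1 measurement for both. TRIM22 lies within the listed span of TRIM5 on the opposite strand, and the first was lower while the second did not pass the test.

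TRIM68, a coactivator of the androgen receptor, had 5.46, 6.10 and 5.29 CPM in the control and 5.64, 6.93 and 8.05 CPM in the shtRF libraries. The groups overlapped, and the log2 fold change of 0.29 ± 0.12 did not pass the test (adjusted p 0.07 in edgeR). TRIM3, a neuronal ligase with an NHL domain, had 250, 228 and 210 CPM against 236, 240 and 224 CPM (0.03 ± 0.06). Its groups overlapped. Under upper quartile scaling, and without control replicate 3, the small difference in TRIM3 took the other sign (-0.01 and -0.03).

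**Figure D3:**
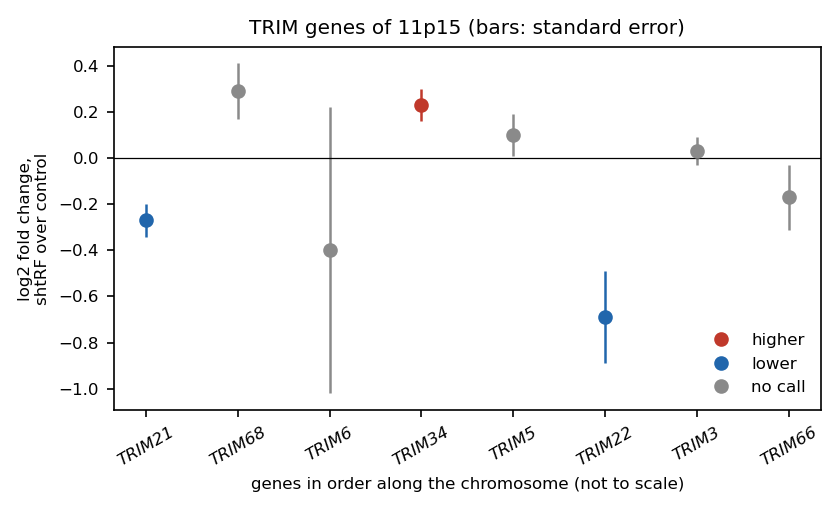
The log2 fold change of shtRF over control is plotted for the 8 TRIM genes of 11p15 in their order along the chromosome, with standard errors as bars. TRIM21 (-0.27) and TRIM22 (-0.69) lie below 0, TRIM34 (0.23) lies above it, and the bar of TRIM6 (0.62) is the widest because it had few counts.

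The chromatin regulators with a PHD finger and a bromodomain changed little. TRIM28, the corepressor that KRAB zinc finger proteins recruit, had 69.1, 67.6 and 72.5 CPM in the control and 64.8, 60.7 and 64.6 CPM in the shtRF libraries. The groups did not overlap, and the log2 fold change of -0.14 ± 0.05 passed the test by a small margin (adjusted p 0.0487 in edgeR). TRIM24, a cofactor of nuclear receptors, had 31.5, 34.0 and 29.0 CPM against 34.5, 30.8 and 32.8 CPM (0.05 ± 0.07, and -0.0017 without control replicate 3). TRIM33, a regulator of SMAD signalling, had 57.2, 58.2 and 53.9 CPM against 57.6, 54.2 and 53.7 CPM (-0.03 ± 0.06). TRIM66 had 5.96, 4.89 and 4.10 CPM against 4.16, 4.88 and 4.24 CPM (-0.17 ± 0.14, from -0.29 to -0.03 with 1 library left out). In the last 3 genes the groups overlapped and none passed the test.

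The partners of TRIM28 in gene silencing were read beside it. Of 10 genes, 3 fell (against 18.9% of all genes tested) and 7 did not pass the test, with a median log2 fold change of -0.0030. SETDB1, the histone H3 lysine methyltransferase that TRIM28 brings to its targets, had 60.2, 55.7 and 55.2 CPM in the control and 42.6, 38.9 and 40.3 CPM in the shtRF libraries (-0.49 ± 0.06, adjusted p 6.79e-07 in edgeR). CBX5, which encodes a heterochromatin protein, fell by 0.33 on the log2 scale, and UHRF1, which guides DNA methylation after replication, by 0.18. The other heterochromatin proteins CBX1 and CBX3 were both at 0.02. Of the exonic bases of SETDB1, 13.4% lie in CERS2 on the opposite strand as well, which had a log2 fold change of 0.71.

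By class of carboxy-terminal domain, the PRY-SPRY members had 7 rises and 6 falls among 23, with a median log2 fold change of 0.07. Among 8 members with no such domain 3 rose and 1 fell (median 0.10). Among 4 members of the microtubule-binding COS class 1 rose and 1 fell, among 3 NHL members 1 fell, and among 5 members of the single-gene and transmembrane classes 1 fell. No class had all of its members called in 1 direction, and over all genes tested the shares were 20.6% higher and 18.9% lower.

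Family genes that carry other symbols were measured beside the members. CMYA5, a large muscle protein, had 117, 113 and 99.0 CPM in the control and 88.5, 92.0 and 91.5 CPM in the shtRF libraries, and it fell (-0.28 ± 0.06, adjusted p 7.91e-04 in edgeR). PML, the organiser of nuclear bodies, had a log2 fold change of -0.28 ± 0.14, MID1 of -1.15 ± 0.50 at under 1 CPM in every library and MID2 of 0.21 ± 0.13. These 3 did not pass the test. MEFV, the gene of pyrin, had too few counts to be tested.

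Levels were compared between members per exon length, as RPKM, in which a count is divided by exon length and library total (mean over 6 libraries). The family spanned from 0.0231 RPKM in TRIM67 to 34.5 RPKM in TRIM3, with a median of 3.42 RPKM. At 10 RPKM or more there were 13 members, between 1 and 10 RPKM 20 members and below 1 RPKM 14 members. TRIM3 led with 31.6 to 38.0 RPKM over the libraries, followed by TRIM44 with 24.0 to 31.6 RPKM. Next came TRIM26 (17.7 to 23.5 RPKM), TRIM16 (18.0 to 22.8 RPKM) and TRIM4 (17.2 to 20.1 RPKM), whose ranges overlap. TRIM21 (13.7 to 19.7 RPKM), TRIM28 (14.5 to 18.2 RPKM) and TRIM37 (15.7 to 17.3 RPKM) overlap TRIM4 in turn, so neither the order below TRIM44 nor the fifth place is set by these data.

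TRIM44 and TRIM3 together made up 30.7% of all TRIM CPM. Of the 5 genes with the highest mean RPKM, 3 rose (TRIM44, TRIM26 and TRIM16), TRIM4 fell and TRIM3 did not pass the test. Over all genes tested, 20.6% were called higher and 18.9% lower. TRIM22, which fell furthest, was at 0.354 RPKM, and TRIM25 at 5.62 RPKM. TRIM55, which rose furthest, was at 0.127 RPKM. TRIM47, with the next largest rise, was at 0.581 RPKM.

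**Figure D4:**
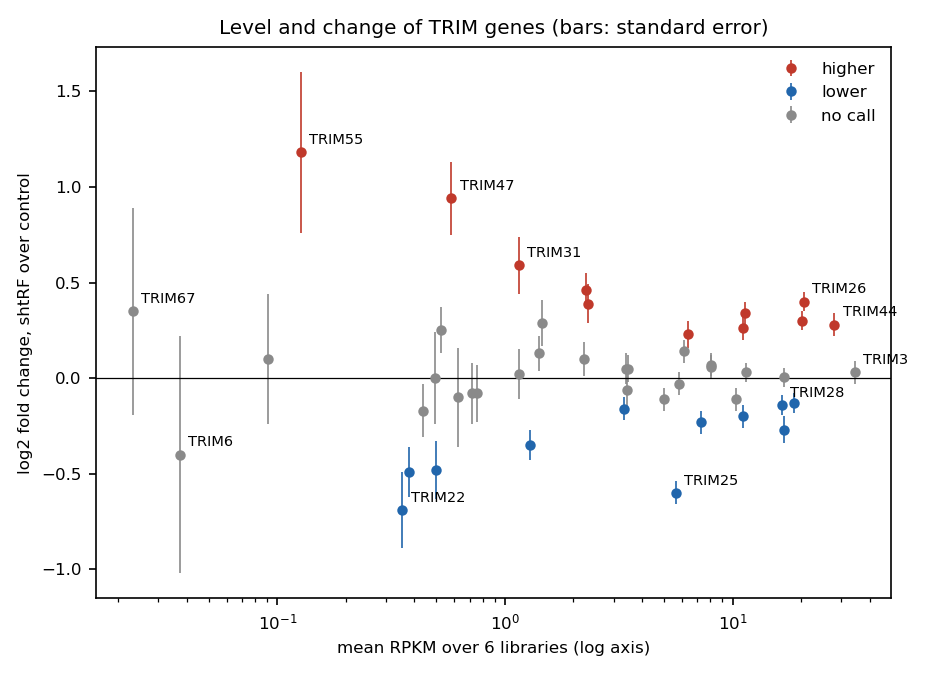
The log2 fold change of shtRF over control is plotted against the mean RPKM over 6 libraries on a log axis for the 47 members, with standard errors as vertical bars and colours for the calls. The widest bars lie below 1 RPKM, among them TRIM55, while TRIM26 and TRIM25 have narrow bars well away from 0.

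At the count minimum, the members just inside were TRIM6 (2 to 17 counts), TRIM67 (6 to 22 counts) and TRIM55 (8 to 42 counts). Just outside were TRIM54 (0 to 16 counts), TRIM9 (2 to 12 counts) and TRIM63 (2 to 16 counts), and the other 17 genes left out had at most 6 counts in any library. At this depth, 25 members had 1000 or more counts in every library and 3 had fewer than 50 in every library. TRIM74, TRIM73 and the left-out TRIM50 are near-identical copies, and their counts are uncertain. Of the 47 members, 10 share at least 10% of their exonic bases with another gene, and 5 of the 22 called members are among them.

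In the antiviral pathway on which many TRIM ligases act, genes were called in both directions. Of 16 genes of RIG-I signalling, 5 fell (31.2%, against 18.9% of all genes tested), 4 rose (25.0%, against 20.6%) and 7 did not pass the test, with a median log2 fold change of -0.06. The RNA sensors fell: DDX58, which encodes RIG-I, had 77.2, 97.0 and 83.1 CPM in the control and 66.3, 60.5 and 69.7 CPM in the shtRF libraries (-0.39 ± 0.07), and IFIH1, which encodes MDA5, had 61.0, 64.6 and 64.7 CPM against 45.5, 48.6 and 49.1 CPM (-0.41 ± 0.06). In both sensors the groups did not overlap. The ubiquitin-like modifier ISG15 (-0.64 ± 0.06), the interferon regulator IRF7 (-0.67 ± 0.10) and the adaptor TRAF3 (-0.23 ± 0.07) fell as well.

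Other genes of the pathway rose. IRF3, a transcription factor that switches on interferon genes, had 113, 95.6 and 92.0 CPM in the control and 143, 145 and 147 CPM in the shtRF libraries (0.53 ± 0.06). In IRF3, 19.3% of the exonic bases lie in BCL2L12 on the opposite strand, which had a log2 fold change of 0.58. The part that BCL2L12 reads have in the IRF3 count was not tested. TAB3, which joins TAK1 to ubiquitin chains, had 41.5, 42.4 and 40.8 CPM against 68.5, 65.0 and 65.5 CPM (0.67 ± 0.05), and IKBKG (0.29) and IKBKE (0.19) rose by less. MAVS (-0.03 ± 0.06), to which both sensors report, did not pass the test.

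Genes of the E2 enzyme family, with which ubiquitin ligases work, were also called in both directions. Of 14 genes, 7 fell (against 18.9% of all genes tested), 4 rose (28.6%, against 20.6%) and 3 did not pass the test, with a median log2 fold change of -0.19 and a median size of 0.41. UBE2L6, the E2 enzyme for ISG15, had 20.2, 21.1 and 20.7 CPM in the control and 8.41, 7.14 and 7.11 CPM in the shtRF libraries, so all shtRF libraries were far below the control libraries (-1.45 ± 0.09, adjusted p 1.00e-11 in edgeR). Among the UBE2E enzymes, UBE2E3 (-2.32 ± 0.34) at 1.22 CPM in the control, UBE2E2 (-1.03 ± 0.15) and UBE2E1 (-0.48 ± 0.10) fell. UBE2V2, a partner of the lysine-63 chain builder UBE2N, fell by 0.65, while UBE2N itself had a log2 fold change of 0.15 ± 0.07 and did not pass the test. In UBE2N, 39.5% of the exonic bases lie in NUDT4 on the opposite strand, which had a log2 fold change of 0.72. UBE2D1 (0.49), UBE2D4 (0.47), UBE2W (0.35) and UBE2K (0.29) rose.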

How the data were processed

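Libraries were made with a strand-specific mRNA kit and sequenced as read pairs. Per the submitters' processing notes, Trimmomatic 0.36, featureCounts of Subread 1.5.1 and edgeR 3.12.1 were used on GRCh38. The aligner, the annotation release and the strand setting of the counter are not given in the sources used here. The authors deposited raw counts per gene for 6 libraries, with exon coordinates and length, and RPKM values. In the part of the RPKM table used here, 100% of the values of 4991 matched genes equalled the count divided by length and library total within a relative tolerance of 1e-06. Of the 47 members, 19 were in that part and the others were not checked. RPKM was computed from the counts for all members. Among counts of 1 to 4, 74.2% to 77.1% were even, against 49.7% to 50.7% of counts of 1000 or more, a sign that both mates of a pair were counted. The count minimum was applied to the counts as given, not to read pairs. Genes that overlap appear to be credited with the same reads, which was not tested here.

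The whole table was fitted with edgeR 4.0.16 in R 4.3.3 (filterByExpr with a minimum count of 10, TMM, quasi-likelihood test with group as the only term, all 6 libraries). P-values were two-sided and adjusted by Benjamini-Hochberg over 19628 tested genes. TMM factors lay between 0.961 and 1.03, and the common dispersion was 0.00572. CPM values use TMM library sizes, and standard errors come from the F statistic. The fit was tested on simulated data. DESeq2 1.42.0, other scalings and filters, halved counts, genes with under 10% exon overlap, a replicate block and leaving out each library were the alternatives. The labels number the replicates alike in both groups, but deviations of same-numbered libraries correlated by 0.06, 0.02 and 0.02, so the numbers were not taken to pair them.

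The members and lists were chosen with earlier results of these data known. Named with values were the 8 largest rises and 8 largest falls among called members, the 5 highest by RPKM, the interferon-inducible list, the PHD-bromodomain members and the 11p15 cluster (28 genes in all), with family genes under other symbols beside them. TRIM16L, TRIM59, TRIM65, members near the count minimum, overlapping genes and genes of the lists were named after their values were seen. Promoters come from RefSeq (GRCh38.p14), matched by symbol. Proteins were not used here.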

Additional observations from a re-analysis of the deposited data

How the results depend on the processing

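The count of higher TRIM genes stayed at 11 under RLE and upper quartile scaling, without a filter, with 10 counts in 3 libraries, with DESeq2 and with halved counts, and it was 8 over the genes with under 10% exon overlap, where fewer genes were tested. The count of lower TRIM genes was 11 with RLE, DESeq2 and halved counts and 12 with upper quartile scaling. It was 8 without a filter, 9 with 10 counts in 3 libraries and 9 under the overlap limit. With halved counts, 45 of the 47 members were tested. Leaving out 1 library in turn gave 10 to 11 higher and 6 to 9 lower genes, 7 without control replicate 3 and 6 without shtRF replicate 2. Over 2-fold higher there were 0 to 2 genes, 0 without control replicate 1, shtRF replicate 1 or shtRF replicate 3 and 2 without shtRF replicate 2, and over 2-fold lower 0 throughout. Of 22 calls, 16 (10 higher, 6 lower) were kept in every alternative that tested the gene: 12 in all 14 alternatives, and TRIM16, TRIM34, TRIM47 and TRIM52 in the 13 that kept them, since the overlap limit removed them. The calls lost in some were TRIM22, TRIM36, TRIM55, TRIM28, TRIM59 (also removed by the overlap limit) and TRIM4. Of 363 values over 28 named genes, 335 kept direction and call, 22 lost the call, 2 gained it (TRIM56 with upper quartile scaling, -0.14, and TRIM68 without shtRF replicate 1, 0.41) and 4 changed sign, all in genes that were not called: TRIM3 with upper quartile scaling (-0.01) and without control replicate 3 (-0.03, in a range up to 0.09 over the libraries left out), TRIM6 without shtRF replicate 2 (0.08, range down to -1.19) and TRIM24 without control replicate 3 (-0.0017, range up to 0.10). The cause was not tested. Upper quartile scaling moved the share of higher genes among all calls from 52.2% to 45.7%.

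With the replicate block there were 11 higher and 10 lower TRIM genes, the call of TRIM4 being lost (-0.13, adjusted p 0.0554). The replicate numbers showed no pairing. Of the 3 members under 50 counts in every library, TRIM6 and TRIM67 allow no statement on changes of the size seen elsewhere in the family. TRIM55, the other of them, was called higher, but the call was kept in only 10 of 14 alternatives.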
